A study of Homo sapiens with 12 samples.

Results

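The AP-1 and EGR immediate early factors described here are 10 genes, FOS, FOSB, FOSL2, JUN, JUNB, JUND, EGR1, EGR2, EGR3 and IER2, taken by symbol from the 58884 genes of the count table. They were picked by family name with earlier results of these data known. The rule itself uses no measured value, and each symbol matched 1 Ensembl gene. RNA was sequenced from U2932 and TMD8, established cell lines of diffuse large B-cell lymphoma (DLBCL). The study's methods list both under the activated B-cell subtype and describe no engineering of either line. Each line received 20 µg/mL of rituximab (R), ofatumumab (OF) or a human IgG1 isotype control for 4 h, which gave 6 conditions with 2 libraries each. R and OF are therapeutic antibodies that bind different epitopes of CD20, a surface protein of B cells, and the isotype control is an antibody without that target. Each line was divided into separately kept cultures before treatment, so the libraries that share a replicate number within a line were taken to come from 1 culture, and both replicates of a condition remain cultures of 1 line.

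Immediate early genes are transcribed within minutes of a signal from pre-existing factors, without new protein synthesis, and many of their transcripts decay quickly. Only 4 h was sampled here, so an earlier change of any member that had passed by then would not be seen. FOS and JUN family proteins pair through leucine zippers to form AP-1, which binds DNA at AP-1 and related cyclic AMP response elements. EGR proteins are zinc finger factors that bind GC-rich elements. In B cells both families are known as early targets of antigen receptor signalling through the ERK, JNK and p38 kinases, with serum response factor and CREB acting at their promoters. IER2 is a nuclear protein encoded by another early response gene.

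The libraries held 15440226 to 27110612 counts. MS4A1, which encodes CD20, had 19132 to 36105 counts per library, and the T cell markers CD3D, CD3E and CD2 had 0 to 3. EPCAM, an epithelial marker, had 509 to 833 counts in U2932 and 0 to 3 in TMD8. Ribosomal protein genes took 7.16% of the counts of the second OF library in TMD8 and 6.50% of those of the second isotype library, against 10.0% to 10.8% in the remaining 4, and this pair is named below as the libraries that stood apart. In U2932 this share was 4.44% to 4.74% with isotype and 6.03% to 6.56% with R or OF. What these differences contribute to the values below was not tested. In RNA from whole cultures, a lower level per cell and fewer cells that express a gene cannot be told apart.

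Promoter sequences in the RefSeq table for GRCh38.p14, the human genome build, were matched to 9 of the 10 genes by symbol. The 3 shown are those of JUN and JUND, whose levels were lower in both R libraries than in both isotype libraries of each line, and of EGR1, a classical target of serum response factor. Each is the 250 bases before the annotated start, written 5′ to 3′ along the gene, and the capitals mark the JUN variant of the AP-1 site (TGACATCA), the cyclic AMP response element (CRE, TGACGTCA) in JUND, and in EGR1 the EGR element (GCGNGGGCG) followed by 2 CArG boxes, the elements that serum response factor binds.
JUN promoter, chr1:58784048-58784297, minus strand: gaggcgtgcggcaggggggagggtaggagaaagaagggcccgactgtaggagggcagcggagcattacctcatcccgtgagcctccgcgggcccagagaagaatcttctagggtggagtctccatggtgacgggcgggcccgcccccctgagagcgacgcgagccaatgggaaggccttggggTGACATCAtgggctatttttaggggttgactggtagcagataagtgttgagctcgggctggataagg
JUND promoter, chr19:18281623-18281872, minus strand: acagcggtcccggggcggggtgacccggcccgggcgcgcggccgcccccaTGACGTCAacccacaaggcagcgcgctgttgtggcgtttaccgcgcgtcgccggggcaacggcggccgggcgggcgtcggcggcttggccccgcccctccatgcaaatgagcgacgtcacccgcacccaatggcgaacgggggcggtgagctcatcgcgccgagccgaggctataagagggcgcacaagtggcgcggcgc
EGR1 promoter, chr5:138465229-138465478, plus strand: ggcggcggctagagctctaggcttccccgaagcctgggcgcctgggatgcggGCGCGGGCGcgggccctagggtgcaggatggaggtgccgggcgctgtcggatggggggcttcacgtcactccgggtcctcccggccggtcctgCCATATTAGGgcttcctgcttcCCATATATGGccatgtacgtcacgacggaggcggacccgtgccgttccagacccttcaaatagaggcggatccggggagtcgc

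Motifs were searched on both strands from 250 bases before to 50 bases after each start, and positions count from 0 at the first transcribed base. The JUN variant spanned -67 to -60 in JUN and was in 2.61% of all 35116 promoters of the table. The CRE spanned -200 to -193 in JUND and was in 1.85% of all promoters. CArG boxes lay at -105 to -96 and -83 to -74 in EGR1 and at -71 to -62 in the first of 3 EGR2 promoters, against 1.29% of all promoters. The EGR element was found in EGR1, at -198 to -190, and in another EGR2 promoter, against 9.43% of all promoters. TATAAA was present near -30 in FOS, FOSB and JUNB and in 11.5% of all promoters. The AP-1 element TGANTCA was found in FOSL2, just after the start, and in 7.71% of all promoters. The short CRE core TGACG, which the full CRE contains, was in all 9 matched genes and in 24.6% of promoters, and GGGCGG, which can overlap the EGR element, was in 7 of the 9 and in 45.0% of promoters. These matches describe letters and do not show binding.

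Under the isotype control, JUND was the most abundant member per kilobase of exon in both lines, and the lines differed most in EGR3 and FOS, higher in U2932, and in JUN, higher in TMD8. On the scale of CPM (counts scaled to equal library totals) per kilobase (mean ± SD, n = 2), U2932 had 50.8 ± 4.57 of JUND, 41.0 ± 3.22 of JUNB and 11.6 ± 0.489 of IER2. These were followed by EGR1 at 5.10 ± 0.114, JUN at 4.18 ± 0.186, EGR2 at 2.53 ± 0.124 and EGR3 at 2.16 ± 0.303, with FOS, FOSL2 and FOSB lowest at 1.27 ± 0.155, 0.777 ± 0.0947 and 0.215 ± 0.0145. Among neighbours in this order only EGR2 and EGR3 differed by no more than their SDs together.
In TMD8 the order was JUND at 36.2 ± 2.30, JUN at 22.0 ± 0.165, JUNB at 20.5 ± 1.08 and IER2 at 10.3 ± 2.54. EGR2 at 2.42 ± 0.536 and EGR1 at 2.02 ± 0.517 were next, and EGR3, FOSL2, FOS and FOSB stood at 0.244 ± 0.0790, 0.214 ± 0.0548, 0.171 ± 0.0678 and 0.0435 ± 0.0470. EGR2 and EGR1, and likewise EGR3, FOSL2 and FOS, lay within each other's spread.

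Between the lines under isotype, 7 of the 10 genes were called, against 56.1% of all genes tested, where a call requires a difference of at least 1.5-fold and, in the quasi-likelihood test of edgeR, an adjusted p below 0.10. EGR3 was higher in U2932 by a log2 difference of 3.10 (adjusted p = 9.1e-07, SE 0.25), FOS by 2.81 (adjusted p = 4.7e-05, SE 0.37) and FOSB by 2.10 (adjusted p = 0.0130, SE 0.63). FOSL2, EGR1 and JUNB were higher in U2932 by 1.82, 1.32 and 1.00. JUN was the only called member that was lower in U2932, with -2.40 (adjusted p = 7.7e-07, SE 0.19). JUND passed the adjusted p limit at 0.49 (adjusted p = 0.00465, SE 0.12) but not the fold limit. EGR2 at 0.051 (adjusted p = 0.817, SE 0.17) and IER2 at 0.17 (adjusted p = 0.359, SE 0.15) passed neither. Each line is 1 cell line with its own culture history, and these cannot be told apart.

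**Figure D1:**
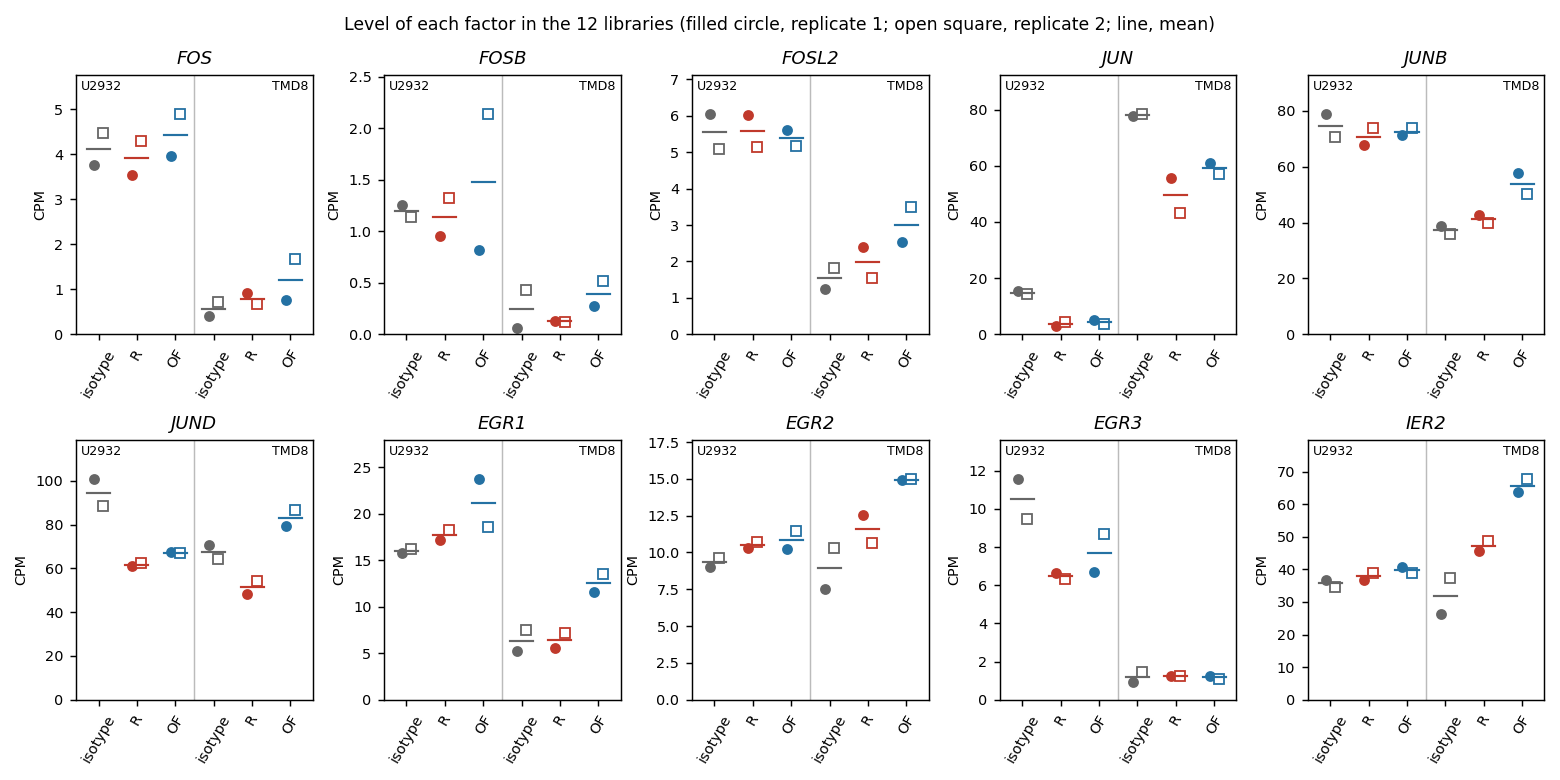
CPM of each of the 10 genes (vertical axis, linear, from 0, with its own scale per gene) in the 12 libraries, by antibody within U2932 (left of the grey line) and TMD8 (right). Circles are replicate 1, squares replicate 2 and short lines the mean of both. JUN in U2932 was 15.3 and 14.3 with isotype and at most 5.08 with either anti-CD20 antibody.

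In U2932, JUN, JUND and EGR3 fell with R and JUN fell with OF, while the FOS family, JUNB, EGR1, EGR2 and IER2 were not called. With R, 3 of the 10 genes were called, against 10.2% of 14635 genes tested, and all 3 were lower, against 5.02% called lower. With OF, 1 of the 10 was called, against 11.1%. Both comparisons use the same isotype libraries. Lack of overlap between the libraries of 2 conditions, given gene by gene below, was common among all genes tested. In U2932, 30.8% were lower and 28.9% higher in both R libraries than in both isotype libraries, and 32.2% and 32.0% with OF. In TMD8 these shares were 24.4% and 23.5% with R and 20.5% and 18.1% with OF. In TMD8, 0 of the 9 genes tested were called with either antibody in the fit without pairing, against 0.647% of 14227 genes with R and 0.815% with OF, and FOSB had too few counts to be tested. At an unadjusted p-value under 0.05 there were 3 with R, against 15.9% of all genes, and 5 with OF, against 14.1%, and DESeq2 called 1 with R (JUN, against 4.93% of all genes) and 2 with OF (EGR1 and IER2, against 4.15%).

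Because same-numbered libraries were taken to share a culture, a fit with the replicate number as a block was also made. It left the members called in U2932 as they were and changed TMD8. With R, JUN was then called lower and IER2 higher, 2 of 9 against 11.0% of all genes. With OF, EGR1, EGR2 and IER2 were called higher, 3 of 9 against 9.75%. Differences between replicates in TMD8 correlated at 0.58 for OF and isotype, whose second libraries are those that stood apart. Their correlation with R was only 0.18 each. Whether the difference that the block takes out stems from the cultures was not tested. The median log2 fold change of the 9 members in the fit without pairing was 0.15 with R and 0.74 with OF in TMD8, beside -0.02 and -0.01 for all genes, and with the GC content correction it was 0.37 and 0.75. In U2932 the medians of the 10 members were -0.07 with R and 0.04 with OF, beside -0.02 and 0.01, and with that correction they were -0.11 and -0.066, so that the OF median changed sign.

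**Figure D2:**
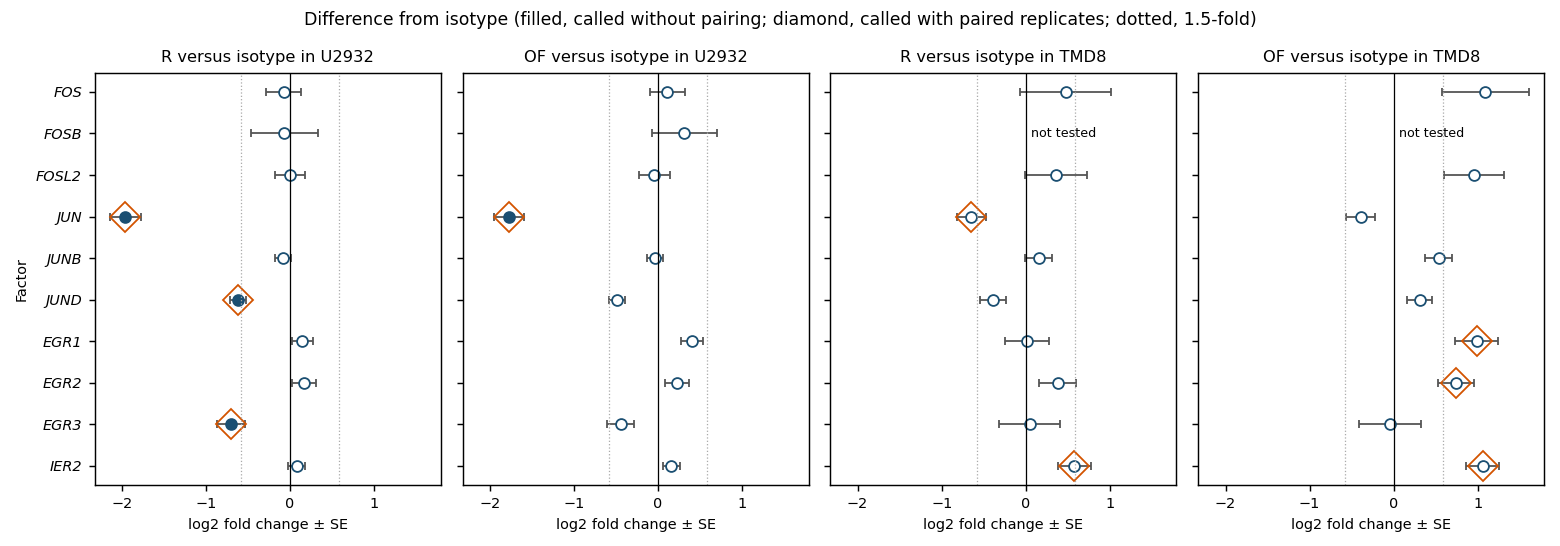
Log2 fold change against isotype (horizontal axis, with bars of 1 SE) of the 10 genes in each of the 4 comparisons of an anti-CD20 antibody with isotype. Filled points were called without pairing, diamonds with paired replicates, and dotted lines mark 1.5-fold. JUN lies left of 0 in all 4 panels, while EGR1, EGR2 and IER2 carry diamonds to the right of 0 with OF in TMD8.

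JUN encodes the archetypal AP-1 subunit, which is a target and a substrate of the JNK pathway. It is a single-exon gene at chr1:58780788-58784327. In U2932, JUN had 15.3 and 14.3 CPM with isotype, 3.14 and 4.45 with R and 5.08 and 3.54 with OF. All 4 libraries with an anti-CD20 antibody lay far under both isotype libraries, and R and OF overlapped. The log2 fold change was -1.96 (adjusted p = 9.2e-09, SE 0.18) with R and -1.78 (adjusted p = 4.5e-08, SE 0.18) with OF, or 3.88-fold and 3.42-fold lower.

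In TMD8, where JUN was more abundant, it had 77.5 and 78.3 CPM with isotype, 55.6 and 43.2 with R and 61.0 and 57.0 with OF. The isotype libraries were again highest and did not overlap with either antibody. The log2 fold change with R was -0.65 (adjusted p = 0.165, SE 0.17), and with paired replicates -0.66 (adjusted p = 0.0220, SE 0.14), which was called. With OF it was -0.39 (adjusted p = 0.373, SE 0.17), and -0.40 (adjusted p = 0.108, SE 0.14) with pairing. After a GC content correction the value with R was -0.53, or -0.54 (adjusted p = 0.0267, SE 0.12) with pairing as well, which was under the fold limit.

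JUND, which lies at chr19:18279760-18281622 in 1 exon, encodes the JUN protein that is usually expressed in resting cells and acts less as an acute target. In U2932, JUND had 101 and 88.6 CPM with isotype, 60.9 and 62.3 with R and 67.4 and 66.9 with OF. Both antibodies lay under isotype without overlap. R gave a log2 fold change of -0.62 (adjusted p = 2.2e-05, SE 0.10), which was called. With OF it was -0.49 (adjusted p = 0.000339, SE 0.10), past the adjusted p limit and short of 1.5-fold. After GC content correction it was -0.71 (adjusted p = 1.5e-07, SE 0.07) with OF, which was called, so that 2 of the 10 genes were called with OF against 10.3% of all genes.

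In TMD8, JUND had 70.5 and 64.4 CPM with isotype, 48.3 and 54.3 with R and 79.5 and 86.7 with OF. The R libraries lay under isotype and the OF libraries above it, with no overlap among the 3 conditions. Neither difference was called, with -0.39 (adjusted p = 0.291, SE 0.15) for R and 0.31 (adjusted p = 0.426, SE 0.15) for OF. JUND has 69.7% GC in its transcript, the highest of the 10 genes, and the GC content correction reduced these values to -0.085 and 0.13.

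JUNB, at chr19:12791496-12793315, encodes a JUN protein that often opposes JUN in growth control. In U2932, JUNB had 78.8 and 70.5 CPM with isotype, 67.6 and 73.8 with R and 71.2 and 73.8 with OF, and the conditions overlapped. The log2 fold changes were -0.078 (adjusted p = 0.599, SE 0.10) and -0.037 (adjusted p = 0.814, SE 0.10). In TMD8 it had 38.8 and 36.0 with isotype, 42.8 and 39.8 with R and 57.6 and 50.2 with OF. The order was isotype, R and then OF, without overlap. The value for OF was 0.53 (adjusted p = 0.208, SE 0.16), and with pairing 0.53 (adjusted p = 0.0352, SE 0.12), past the adjusted p limit but under 1.5-fold. JUNB shares exonic bases with HOOK2 on the opposite strand, and because the strand setting of the counting is not given in the sources used here, reads of both genes may be mixed.

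As a share of the summed CPM per kilobase of JUN, JUNB and JUND, JUN made up 4.36% ± 0.169 (SD, n = 2) in U2932 with isotype, 1.46% ± 0.293 with R and 1.58% ± 0.407 with OF. In TMD8 the share was 28.0% ± 1.35 with isotype, 21.7% ± 3.40 with R and 18.3% ± 0.694 with OF. In both lines every library with an anti-CD20 antibody had a lower JUN share than either isotype library. The JUNB share was larger with antibody, 53.2% ± 0.969 with R and 51.7% ± 0.959 with OF against 42.7% ± 0.193 in U2932. In TMD8 the JUNB shares were 35.4% ± 1.07 and 32.6% ± 2.84 against 26.1% ± 0.304. The JUND shares with R and OF were 45.3% ± 1.26 and 46.8% ± 0.551 against 52.9% ± 0.362 in U2932. In TMD8 they were 42.9% ± 4.46 and 49.1% ± 3.53 against 45.9% ± 1.05. A larger share need not mean a higher level, and in U2932 the JUNB levels with antibody overlapped with isotype. These shares are a description without a test, since with 2 libraries a group no permutation of libraries reaches a p-value of 0.05.

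**Figure D3:**
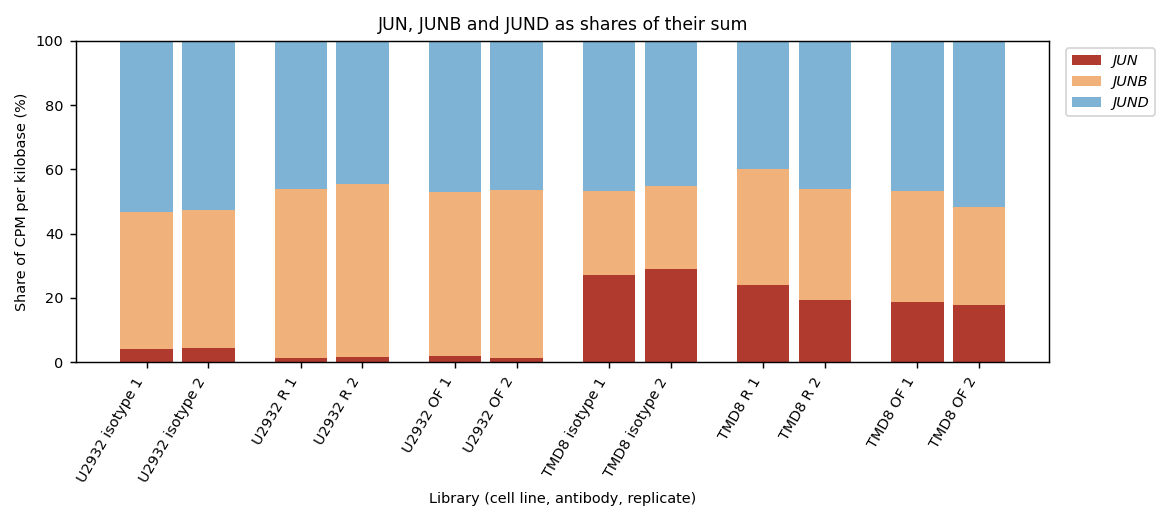
Shares of JUN, JUNB and JUND in their summed CPM per kilobase (vertical axis, percent) in each of the 12 libraries, named by cell line, antibody and replicate. JUN is the red base of each bar, with means of 4.36% in U2932 and 28.0% in TMD8 under isotype and smaller bases with R and OF.

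The FOS family supplies the partners with which JUN proteins form the AP-1 dimers that bind DNA most stably. At 4 h, the only time sampled, this family was scarce. FOS, at chr14:75278774-75282230, had 3.76 and 4.47 CPM with isotype in U2932, 3.54 and 4.29 with R and 3.97 and 4.89 with OF. These overlapped, with log2 fold changes of -0.071 (adjusted p = 0.839, SE 0.21) and 0.11 (adjusted p = 0.728, SE 0.21). In TMD8, FOS had 0.400 and 0.710 with isotype, 0.911 and 0.684 with R and 0.755 and 1.68 with OF, from 7 to 26 counts per library. The OF libraries lay above isotype, and the value of 1.09 (adjusted p = 0.401, SE 0.52) was not called with or without pairing.

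FOSB, at chr19:45467995-45475179, encodes a FOS protein that also has a short, stable splice form. It had 1.25 and 1.14 CPM with isotype in U2932, 0.954 and 1.32 with R and 0.817 and 2.14 with OF, and the 2 OF libraries were the lowest and the highest of the 6. Its log2 fold changes were -0.066 (adjusted p = 0.927, SE 0.40) and 0.32 (adjusted p = 0.586, SE 0.39). In TMD8 it had 1 to 12 counts per library, too few to be tested.

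FOSL2, at chr2:28392448-28417312, encodes the FOS-related protein FRA-2, which lasts longer after a signal than FOS. In U2932 it had 6.04 and 5.08 CPM with isotype, 6.01 and 5.14 with R and 5.60 and 5.18 with OF, and the conditions overlapped. The log2 fold changes there were 0.00074 with R and -0.041 with OF. In TMD8 it had 1.26 and 1.81 with isotype, 2.41 and 1.55 with R and 2.54 and 3.48 with OF. Both OF libraries were above the other 4, and the log2 fold change of 0.96 (adjusted p = 0.306, SE 0.36) was not called with or without pairing.

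Among the EGR genes, EGR1 and EGR2 were higher with OF in TMD8, called only with replicates paired or in other alternative fits, and EGR3 was lower with R in U2932. EGR1, at chr5:138465490-138469315, encodes the best known early zinc finger factor of antigen receptor and ERK signalling. In U2932, EGR1 had 15.8 and 16.3 CPM with isotype, 17.2 and 18.3 with R and 23.7 and 18.6 with OF. Both antibodies lay above isotype without overlap. Log2 fold changes were 0.15 (adjusted p = 0.431, SE 0.13) with R and 0.41 (adjusted p = 0.0161, SE 0.13) with OF, the second past the adjusted p limit and under 1.5-fold.

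In TMD8, EGR1 had 5.20 and 7.49 CPM with isotype, 5.59 and 7.21 with R and 11.6 and 13.5 with OF. R overlapped with isotype, and both OF libraries were above the other 4. The log2 fold change with OF was 0.99 (adjusted p = 0.165, SE 0.25), and 1.00 (adjusted p = 0.0167, SE 0.18) with pairing, which was called. With R it was 0.014, and -0.13 when scaled by library size only.

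EGR2, on chromosome 10 and known for its part with EGR3 in restraining activated lymphocytes, had 9.00 and 9.64 CPM with isotype in U2932, 10.3 and 10.7 with R and 10.2 and 11.5 with OF. The antibodies lay above isotype by little, with 0.17 (adjusted p = 0.409, SE 0.14) and 0.22 (adjusted p = 0.251, SE 0.14). In TMD8 it had 7.54 and 10.3 with isotype, 12.6 and 10.6 with R and 14.9 and 15.0 with OF. The 3 conditions did not overlap and were highest with OF. OF gave a log2 fold change of 0.74 (adjusted p = 0.204, SE 0.22), and 0.74 (adjusted p = 0.0528, SE 0.19) with pairing, which was called.

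EGR3, on chromosome 8, had 11.5 and 9.47 CPM with isotype in U2932, 6.62 and 6.30 with R and 6.71 and 8.66 with OF. Every antibody library lay under both isotype libraries. R gave a log2 fold change of -0.70 (adjusted p = 0.00198, SE 0.16), which was called, and -0.44 (adjusted p = 0.0385, SE 0.16) with OF, which was under 1.5-fold. Without isotype replicate 1 in U2932, the values with R were -0.56 for EGR3 and -0.53 for JUND, and JUN alone was called. Without OF replicate 2, the value of EGR3 with OF was -0.65 and it was called. In TMD8, EGR3 had 0.914 and 1.46 with isotype, 1.24 and 1.24 with R and 1.24 and 1.10 with OF, all overlapping. A gene on the opposite strand, AC055854.1, overlaps exons of EGR3.

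IER2, at chr19:13150415-13154908, had the largest increase called against isotype among the members, with OF in TMD8 and paired replicates. In TMD8 it had 26.2 and 37.2 CPM with isotype, 45.5 and 48.6 with R and 63.7 and 67.6 with OF. The 3 conditions did not overlap, and the order was isotype, R and then OF. With pairing, the log2 fold change was 0.59 (adjusted p = 0.0398, SE 0.15) with R and 1.07 (adjusted p = 0.00675, SE 0.15) with OF, both called, and without it 0.58 (adjusted p = 0.229, SE 0.19) and 1.06 (adjusted p = 0.108, SE 0.19). In U2932, IER2 had 36.8 and 34.7 with isotype, 36.9 and 38.8 with R and 40.7 and 39.0 with OF. All 4 antibody libraries lay just above isotype. The log2 fold changes there were 0.081 (adjusted p = 0.606, SE 0.10) and 0.16 (adjusted p = 0.252, SE 0.10), and the first was -0.018 when scaled by library size only. The overlapping opposite-strand gene is AC011446.2.

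Leaving out both TMD8 libraries that stood apart, a step chosen after seeing the data, left 1 OF and 1 isotype library, each assumed to vary as the R libraries do. With OF, the log2 fold changes of the 3 members called with pairing were then 1.15 for EGR1, 0.97 for EGR2 and 1.27 for IER2. With R, they were 0.84 for IER2, 0.61 for EGR2 and -0.66 for JUN. The remaining libraries were also in the paired fit, so these values are not an independent check of it.

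R and OF were compared directly in each line. In U2932, 0 of the 10 genes were called, against 0.00683% of all genes at the adjusted p limit of 0.30 used for this comparison, and 0 passed an unadjusted p-value of 0.05, against 5.1%. The values ran from -0.38 for FOSB to 0.042 for FOSL2, with -0.18 (adjusted p = 0.919, SE 0.21) for JUN. Those of JUNB, JUND and IER2 changed sign with the GC content correction.

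In TMD8, 8 of the 10 genes, all but FOS and EGR3, were lower in both R libraries than in both OF libraries. Among genes tested this held for 7 of the 9 members and 23.5% of all genes. Of the 9 tested, 0 were called by edgeR with or without pairing or by DESeq2, against 0.0% of all genes in each, and 4 had an unadjusted p-value under 0.05, against 4.09%. The largest differences were -0.97 (adjusted p = 0.733, SE 0.26) for EGR1 and -0.69 (adjusted p = 0.733, SE 0.15) for JUND. The median of the 9 was -0.48, beside 0.01 for all genes. In the same comparison the median log2 fold change of all genes ran with GC content from 0.23 in the decile of genes lowest in GC to -0.41 in the highest, and the 10 members have 50.9% to 69.7% GC against a median of 48.5% among genes tested. With the GC content correction the median of the 9 was -0.22, and 1 of them had an unadjusted p-value under 0.05, against 2.17% of all genes. After this correction, EGR1 stood at -0.81, JUND at -0.22, IER2 at -0.16 and JUNB at -0.0054. Without both libraries that stood apart, EGR1 at -0.85 (adjusted p = 0.0115, SE 0.22) and JUND at -0.63 (adjusted p = 0.000418, SE 0.13) were called, against 0.91%, in a fit without that correction.

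**Figure D4:**
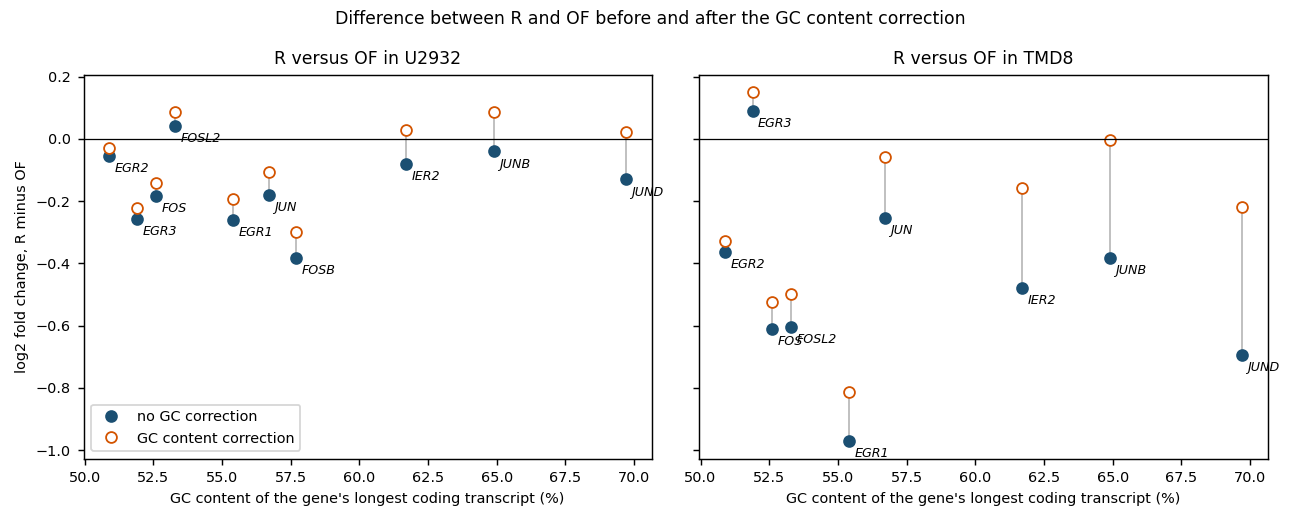
Log2 fold change between R and OF (vertical axis, R minus OF) against the GC content of each gene's transcript (horizontal axis, percent) in U2932 (left) and TMD8 (right), for the members tested. Filled points are uncorrected and open points follow the GC content correction. In TMD8, JUND moves from -0.69 to -0.22 and EGR1 from -0.97 to -0.81.

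Whether the response to an antibody differed between the lines was tested with an interaction of antibody and cell line. For R, 0 of the 10 genes were called, against 0.321% of 16187 genes, with 2 under an unadjusted p-value of 0.05 against 11.9%. For OF, 0 were called, against 0.105%, with 5 under an unadjusted p-value of 0.05 against 8.46%. DESeq2 called JUN for R, against 2.77% of all genes, and JUN, JUND and IER2 for OF, against 1.38%. With replicates paired, JUN was called for R at -1.29 (adjusted p = 0.0183, SE 0.24), 1 of 10 against 4.76% of all genes. For OF with pairing, JUN at -1.38 (adjusted p = 0.0223, SE 0.24), IER2 at -0.90 (adjusted p = 0.0332, SE 0.17) and JUND at -0.79 (adjusted p = 0.0372, SE 0.16) were called, 3 of 10 against 2.19%. Each is a log2 fold change in U2932 minus that in TMD8, and negative values mean that the change was further down, or less far up, in U2932. For JUND with OF the values on the 2 sides were -0.49 in U2932 and 0.31 in TMD8, and for IER2 they were 0.16 and 1.06.

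Of 13 other AP-1 partners, 9 were tested in each line. In U2932, 3 rose with R and the same 3 with OF, and 0 fell, against 5.19% of all genes called higher with R and 5.9% with OF. The median log2 fold change of the 9 was 0.32 with R and 0.38 with OF, beside -0.02 and 0.01 for all genes. BATF, a leucine zipper factor that pairs with JUN proteins in lymphocytes, rose by 0.84 (adjusted p = 1.8e-06, SE 0.11) with R and 0.72 (adjusted p = 1.7e-05, SE 0.11) with OF. Its CPM were 20.2 and 19.7 with isotype, 35.6 and 35.6 with R and 31.3 and 34.0 with OF, without overlap between antibody and isotype. JDP2, a repressive JUN partner, rose by 0.65 and 0.68, and MAFF, a small MAF protein, by 0.64 and 0.75. After GC content correction, BATF with OF stood at 0.55 (adjusted p = 6.3e-05, SE 0.09) and was under the fold limit. In TMD8, 0 of the 9 were called, with 2 under an unadjusted p-value of 0.05 for each antibody, against 15.9% of all genes with R and 14.1% with OF. With pairing, MAFK, another small MAF gene, was called higher at 0.98 (adjusted p = 0.00823, SE 0.14) and ATF3, a stress-induced partner, lower at -0.64 (adjusted p = 0.0249, SE 0.13) with OF. Without both libraries that stood apart, MAFK was called with OF and ATF3, at -0.50, was not.

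Of 26 upstream regulators of these genes, all were tested in both lines. In U2932, 1 rose and 2 fell with R, and the same 3 were called with OF, a share near the 10.2% and 11.1% of all genes called. CREBBP and EP300, the histone acetyltransferases that serve CREB and AP-1 as coactivators, fell by 1.04 and 0.79 on the log2 scale with R and by 0.75 and 0.63 with OF. RPS6KA4, a kinase downstream of ERK and p38, rose by 0.77 and 0.95. In TMD8, 0 were called, with 5 under an unadjusted p-value of 0.05 for R and 6 for OF, beside the same shares of all genes. With pairing 3 of 26 were called with each antibody, again near the 11.0% and 9.75% of all genes. CREBBP at -1.14 (adjusted p = 0.0192, SE 0.22), MRTFA and MAP2K2 were called lower with R in that fit, and SRF, which encodes serum response factor, at 0.65 (adjusted p = 0.0243, SE 0.13), ELK3 and RPS6KA4 higher with OF. CREBBP had 94.2 and 240 CPM with isotype and 59.7 and 75.9 with R, and MRTFA 45.6 and 84.8 and 35.6 and 39.0, so the higher value of each isotype pair came from the library that stood apart. Without both libraries that stood apart, CREBBP at -0.48, MRTFA at -0.30 and MAP2K2 at -0.48 were not called with R, and SRF, ELK3 and RPS6KA4 were called with OF.

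Of 33 other immediate early genes, 29 were tested in each line, MAFF and ATF3 among them. In U2932, 4 rose and 3 fell with R, against 10.2% of all genes called, and 5 rose and 3 fell with OF, against 11.1%. SGK1, an early serum- and stress-induced kinase, rose by 1.26 with R and 1.04 with OF, DUSP2, a phosphatase of ERK and p38, by 0.71 and 0.75, and IER5L by 1.98 and 1.94. MYC rose with OF by 0.71. DUSP1, a phosphatase of JNK and p38, had log2 fold changes of -0.92 and -0.80, BTG1 of -0.81 and -0.78, and PPP1R15A of -0.81 and -0.60, all called.
In TMD8, SGK1 was the only gene of the 29 called with R, at 2.13 (adjusted p = 0.0720, SE 0.30), against 0.647% of all genes. With OF, 4 were called, against 0.815%, namely SGK1 at 1.92 (adjusted p = 0.0935, SE 0.29), DUSP2 at 1.37, MYC at 1.19 and KLF6 at 1.17. SGK1 had 16.4 and 11.4 CPM with isotype, 70.1 and 50.6 with R and 61.8 and 42.8 with OF, and the isotype libraries lay far under the rest. With pairing, 5 of the 29 were called higher and 5 lower with R, against 11.0% of all genes called, and 7 higher and 2 lower with OF, against 9.75%, and SGK1, DUSP2, MYC, KLF6 and CD69 were among those higher with each. NR4A3, an orphan nuclear receptor, was called lower with R at -1.11 (adjusted p = 0.0489, SE 0.30) and with OF at -1.20 (adjusted p = 0.0458, SE 0.30), and PPP1R15A at -0.71, BTG1 at -0.70, GADD45A at -0.68 and IER5 at -0.60 were called lower with R. Without both libraries that stood apart, 7 of these 10 were called with R, not CD69, NR4A3 or PPP1R15A, and 7 of the 9 with OF, not ATF3 or NR4A3. KLF6, a zinc finger factor, was the only gene of the 3 lists called in the interaction without pairing, by -1.03 (adjusted p = 0.0520, SE 0.17) for R and -1.27 (adjusted p = 0.0270, SE 0.17) for OF, U2932 minus TMD8.

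The genes whose pattern was most like 2 of the members were found by Pearson's correlation of log2 CPM over the 12 libraries, centred on each line's mean, among 16186 genes. For EGR1 these were YBX3 (r = 0.955), SLC25A22 (r = 0.945) and RAB40C (r = 0.928), and for FOS they were AC104809.2 (r = 0.944), CNOT6 (r = 0.942) and CYP2E1 (r = 0.933). The libraries share cultures and lines, and these values are a description of likeness only.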

How the data were processed

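RNA of 12 libraries was compared. The authors trimmed, aligned and counted the reads and deposited raw counts per gene, neither normalized nor filtered. The submitters' processing notes name Trim Galore 0.6.0, STAR 2.7.0e, DESeq2 1.26.0 and the build GRCh38, while the annotation release and strand setting are not given in the sources used here. All 12 columns were matched to samples by their labels. Symbols, positions, lengths and transcript GC content (longest transcript, coding where there is one) came from GENCODE 29, with a symbol for 58611 of 58884 genes.

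Counts were fitted with edgeR 4.0.16 in R 4.3.3 (TMM, filterByExpr with at least 10 counts, quasi-likelihood test) on the 6 libraries of a line, or on all 12 for interactions and the comparison of lines, without covariates. P-values were adjusted over all genes tested (Benjamini-Hochberg). Calls required an adjusted p under 0.10, or 0.30 for R versus OF in U2932, and 1.5-fold. CPM are TMM-normalized, and log2 CPM for likeness had a prior count of 2. Figures used matplotlib 3.10.9. Steps were tested on simulated data.

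The 10 members and the lists of partners, regulators, other immediate early genes and markers were chosen with earlier results of these data known. Named genes are all members, listed genes called against isotype and the 3 genes most like FOS and EGR1, apart from markers. MRTFA was listed under its older symbol MKL1. With 2 libraries a condition, p-values of the fits without pairing measure the spread between 2 cultures of a line. With the replicate block, they measure the spread left after the mean difference between replicate 1 and replicate 2 libraries is taken out. Whether that difference stems from the cultures was not tested. In fits without both libraries that stood apart, the lone OF and isotype libraries of TMD8 add no spread of their own.

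The study's methods describe the replicates of a line as 2 separately kept cultures, so a replicate number in the labels was taken to mark a shared culture. Deviations of same-numbered libraries from their condition means correlated at 0.58 for OF and isotype in TMD8, at 0.18 in the other pairs of conditions there, and at -0.04 to 0.10 in U2932. Alternatives were the replicate block, DESeq2 1.42.0, other scalings and filters, a GC content correction (lowess, span 0.3), other limits, all 12 or only 4 libraries, and leaving out libraries. Libraries held 15440226 to 27110612 counts. The median SE of a log2 fold change, R versus isotype, was 0.12 in U2932 and 0.25 in TMD8, and in TMD8 0.17 with the replicate block and 0.16 without both libraries that stood apart.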

Additional observations from a re-analysis of the deposited data

Results flagged for a closer look

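JUND differed in direction between the lines with OF, though in the fit without pairing it was called with OF in neither line. In U2932 both OF libraries (67.4 and 66.9 CPM) lay under both isotype libraries (101 and 88.6), and in TMD8 both OF libraries (79.5 and 86.7) lay above both isotype libraries (70.5 and 64.4). The difference between the log2 fold changes, U2932 minus TMD8, was -0.80 (adjusted p = 0.187, SE 0.17) by edgeR's quasi-likelihood interaction test, and -0.79 (adjusted p = 0.0372, SE 0.16) with replicates paired. With the GC content correction, the rise in TMD8 was smaller. JUND was then called in this interaction with pairing but not without it. Lack of overlap was common among all genes tested. With OF, 32.2% were lower than isotype without overlap in U2932, and 18.1% were higher in TMD8. Groups of 2 libraries are too small for a test of single outlying libraries.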

How the results depend on the processing

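In U2932, JUN was called with R and with OF under every alternative run. With OF in U2932 the number of members called was 2 with the GC content correction, with or without pairing, and 4 without a fold limit, against 1. With replicates paired (the replicate block), 2 members were called with R and 3 with OF in TMD8, and 1 for R and 3 for OF in the interactions, against 0 each. The paired fit changed no other count of members called, while the calls over all genes in TMD8 went from 92 to 1565 with R and from 116 to 1387 with OF, and in the interactions from 52 to 770 and from 17 to 354. DESeq2 called 1 and 2 members in TMD8 and 1 and 3 in the interactions. The GC content correction gave 1 and 2 in TMD8 and 1 for OF in the interaction, and with pairing as well 1 and 3 in TMD8 and 2 and 4 in the interactions. Without a filter the count was 2 for OF in TMD8, and 1 and 2 in the interactions. At least 10 counts in every library gave 1 in the interaction for R. One fit of all 12 libraries gave 1 and 4 in TMD8. Leaving out both libraries that stood apart, chosen after seeing the data, gave 3, 3 and, for R versus OF, 2 in TMD8, and 2 and 4 in the interactions. Here the lone OF and isotype libraries are assumed to vary like the others.

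Over all genes, calls in TMD8 for R and OF were 702 and 590 with DESeq2, 458 and 439 with the GC content correction, 1093 and 908 without a filter, 1359 and 1170 in one fit, 26 and 0 with only the 4 libraries compared, and 0 and 0 at an adjusted p under 0.05. With at least 10 counts in every library they were 171 for R, and with library size only 25 for OF. Without both libraries that stood apart they were 1932 and 1783, and 131 for R versus OF, which had 71 without a filter and 0 otherwise. In U2932 calls were 5005 and 5334 without a fold limit and 800 and 904 in one fit, against 1494 and 1625. With the GC content correction and pairing they were 1389 and 1361 in TMD8 and 406 and 410 in the interactions. The interactions for R and OF gave 448 and 223 with DESeq2, 265 and 171 without a filter, and 1609 and 703 without both libraries that stood apart, and also 77 for OF with the GC content correction and 10 for R at an adjusted p under 0.05. R versus OF in U2932 gave 0 to 5 against 1, and the difference between the lines 5432 with 10 counts in every library against 9074. Without 1 library at a time, calls ran from 0 to 522 for R and 0 to 483 for OF in TMD8, from 0 to 651 and 0 to 179 in the interactions, and from 2 to 9 for R versus OF in U2932. Scaling by library size only moved the median log2 fold change of all genes to -0.12 with R in U2932, where 480 genes were called higher and 1186 lower against 760 and 734, and to -0.16 with R in TMD8 (26 and 40 against 57 and 35). With OF in U2932 the split was 571 and 1055 against 863 and 762, and between the lines the median was 0.11.

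Some log2 values of members changed sign. With library size only, FOSL2 was -0.098 and IER2 -0.018 for R in U2932, and EGR1 -0.13 and EGR3 -0.098 for R in TMD8. For R in U2932, FOSL2 was -0.026 without a filter, -0.013 with 10 counts in every library and -0.028 with the GC content correction (-0.027 paired). The GC content correction, without and with pairing, gave IER2 -0.016 and -0.015 for OF in U2932, and for R versus OF there JUNB 0.086 and 0.085, JUND 0.021 and 0.021, and IER2 0.029 and 0.028. It gave EGR1 -0.018 and -0.025 in the interaction for R, EGR2 -0.011 and -0.069 between the lines, and, paired, JUNB 0.013 for R versus OF in TMD8. EGR1 with R in TMD8 was -0.0031 with upper-quartile normalization, -0.0025 with 10 counts in every library and -0.0015 in one fit. Leaving out both libraries gave EGR3 0.42 for OF and FOS 0.074 for R versus OF in TMD8, and FOSB -1.13 and EGR1 -0.16 in the interaction for R. The cause of these changes was not tested.

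Leaving out 1 library at a time gave 1 to 3 members called for R and 1 to 2 for OF in U2932, 0 to 0 for R and 0 to 2 for OF in TMD8, 0 to 0 for R versus OF in either line, 0 to 2 in each interaction and 7 to 7 between the lines. The libraries concerned were isotype replicate 1 and OF replicate 2 in U2932 and both isotype libraries in TMD8, and without isotype replicate 2 there EGR1 and IER2 were called with OF. Values that crossed 0 ranged as follows. For R in U2932 they were FOS -0.21 to 0.057, FOSB -0.32 to 0.14 and FOSL2 -0.12 to 0.12. For OF in U2932 they were FOS -0.055 to 0.26, FOSB -0.55 to 0.84, FOSL2 -0.16 to 0.077 and JUNB -0.12 to 0.034. For R versus OF in U2932 they were FOSB -0.91 to 0.48, FOSL2 -0.080 to 0.16, JUN -0.45 to 0.098, JUNB -0.10 to 0.015 and EGR2 -0.14 to 0.034. In TMD8 they were EGR1 -0.20 to 0.30 and EGR3 -0.20 to 0.44 with R, EGR3 -0.29 to 0.34 with OF, and FOS -1.05 to 0.070 and EGR3 -0.0011 to 0.19 for R versus OF. In the interactions they were FOSB -1.13 to 1.62, FOSL2 -0.65 to 0.0081, EGR1 -0.15 to 0.37 and EGR2 -0.45 to 0.0029 for R and FOSB -2.35 to 0.40 for OF, and between the lines EGR2 -0.14 to 0.30 and IER2 -0.053 to 0.45. Depth limits FOS in TMD8, at 7 to 26 counts, and FOSB, at 1 to 12, most.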
